A study of Mus musculus with 2 samples.

Results

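The genes described here are 9 members of the DNA methylation machinery, chosen by name and by role and found by matching the deposited gene identifiers to symbols, 9 of the 43346 Ensembl genes in the tables. They are the maintenance methyltransferase Dnmt1 and its recruiting factor Uhrf1, the de novo methyltransferases Dnmt3a and Dnmt3b, the oxidising enzymes Tet1, Tet2 and Tet3, and the methyl-CpG binding domain proteins Mbd2 and Mbd3. The samples form 1 group, whole midbrain taken at postnatal day 0 from mice of the strain B6NTac;B6NCrl/Lap, with males and females pooled and no treatment or engineered allele named in the labels. It was measured in 2 libraries that the labels call independent isolates; replicate 1 was a pool of 15 animals and replicate 2 a pool whose size the labels do not state. The RNA was longer than 200 nucleotides, depleted of ribosomal RNA and read as stranded pairs.

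In vertebrate DNA, methyl groups are placed mainly on cytosines that are followed by guanine, the CpG sites. Dnmt3a and Dnmt3b write new marks. Dnmt1, guided by Uhrf1 to freshly copied DNA, restores the marks on the new strand after replication, so maintenance is tied to dividing cells. The TET enzymes oxidise methylcytosine, after which base excision repair or further replication can remove the mark, and Mbd2 and Mbd3 are alternative subunits of the NuRD repressor complex, Mbd2 with and Mbd3 without strong affinity for methylated CpG. In the brain, Dnmt3a and the TET enzymes are known to act in neurons that no longer divide.

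Replicate 1 held 46119077 estimated counts on genes and replicate 2 held 72011312. Values are TPM (the authors' length-corrected transcript abundance, which sums to the same total in each library) and were not scaled between libraries unless a library ratio is named. TPM ran lower in replicate 2, with a median log2 ratio of -0.27 over 11567 detected genes that had 400 or more counts in the libraries together. Markers of neurons, progenitors, astrocytes, microglia, endothelium and blood were at 1 TPM or more in both libraries for every gene listed, as were 4 of 5 markers of the oligodendrocyte lineage. The isolates differed in markers of neighbouring tissue. On counts scaled between libraries, 4 of 4 choroid plexus markers and 5 of 5 hindbrain Hox genes were higher in replicate 2; Ttr stood at 14.43 TPM in replicate 1 and 162.6 in replicate 2, and the summed Hox TPM was 0.59 and 6.94. Since 2 libraries of 1 group leave no comparison between groups, no test was run, and every SD below is over n = 2.

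Transcription of several members can begin at more than 1 place, and the promoter sequences at these starts differ in how many CpG sites they hold themselves. The 300-base windows of Dnmt1, Uhrf1 and Dnmt3a are shown because the shares of their alternative starts are described below. They run 5′ to 3′ from 250 bases before to 50 bases after an annotated RefSeq start, on build GRCm38.p6, with every CpG in capitals. The first 3 are the Dnmt1 starts on the minus strand, at chr9:20959839-20960138 (upstream, 2 CpG), chr9:20952930-20953229 (start of the leading transcript, 12 CpG) and chr9:20952574-20952873 (33 CpG).
Dnmt1 upstream start: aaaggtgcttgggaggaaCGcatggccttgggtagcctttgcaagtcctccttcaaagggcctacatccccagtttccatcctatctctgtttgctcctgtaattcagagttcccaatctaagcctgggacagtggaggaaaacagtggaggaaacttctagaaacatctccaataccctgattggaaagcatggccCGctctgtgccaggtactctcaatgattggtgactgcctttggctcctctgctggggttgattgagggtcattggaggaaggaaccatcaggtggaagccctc
Dnmt1 main start: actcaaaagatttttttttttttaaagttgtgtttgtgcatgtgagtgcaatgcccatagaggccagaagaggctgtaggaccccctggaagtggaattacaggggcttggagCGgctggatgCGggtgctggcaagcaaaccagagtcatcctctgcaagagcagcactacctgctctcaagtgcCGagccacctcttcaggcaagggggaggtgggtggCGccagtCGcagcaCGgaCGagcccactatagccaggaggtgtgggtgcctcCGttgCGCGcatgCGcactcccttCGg
Dnmt1-203 start: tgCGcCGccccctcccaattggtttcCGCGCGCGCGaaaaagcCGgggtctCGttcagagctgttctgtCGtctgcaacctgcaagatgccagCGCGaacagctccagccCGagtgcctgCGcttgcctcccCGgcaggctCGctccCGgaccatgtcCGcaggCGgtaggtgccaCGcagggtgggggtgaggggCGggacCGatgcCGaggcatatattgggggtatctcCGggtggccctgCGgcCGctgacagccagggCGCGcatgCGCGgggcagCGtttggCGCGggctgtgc
The Uhrf1 windows lie on the plus strand at chr17:56303087-56303386 (12 CpG) and chr17:56304063-56304362 (33 CpG).
Uhrf1 upstream start: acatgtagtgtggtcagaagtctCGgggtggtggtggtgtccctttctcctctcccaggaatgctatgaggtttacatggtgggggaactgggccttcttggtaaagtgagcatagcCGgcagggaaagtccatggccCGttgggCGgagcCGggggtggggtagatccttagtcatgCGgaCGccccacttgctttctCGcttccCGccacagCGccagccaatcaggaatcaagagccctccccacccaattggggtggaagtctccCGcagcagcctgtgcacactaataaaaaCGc
Uhrf1 downstream start: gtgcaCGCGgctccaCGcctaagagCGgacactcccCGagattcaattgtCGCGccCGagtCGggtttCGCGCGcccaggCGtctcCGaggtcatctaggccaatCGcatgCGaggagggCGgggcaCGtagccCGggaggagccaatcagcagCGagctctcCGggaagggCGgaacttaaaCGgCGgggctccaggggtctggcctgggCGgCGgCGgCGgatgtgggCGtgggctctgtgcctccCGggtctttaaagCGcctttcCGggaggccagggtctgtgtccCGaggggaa
The Dnmt3a windows lie on the plus strand at chr12:3806730-3807029, whose RefSeq start is 50 bases before the annotated start of the long form Dnmt3a-201 (46 CpG), and chr12:3891494-3891793, at the start of the short form (18 CpG).
Dnmt3a long form: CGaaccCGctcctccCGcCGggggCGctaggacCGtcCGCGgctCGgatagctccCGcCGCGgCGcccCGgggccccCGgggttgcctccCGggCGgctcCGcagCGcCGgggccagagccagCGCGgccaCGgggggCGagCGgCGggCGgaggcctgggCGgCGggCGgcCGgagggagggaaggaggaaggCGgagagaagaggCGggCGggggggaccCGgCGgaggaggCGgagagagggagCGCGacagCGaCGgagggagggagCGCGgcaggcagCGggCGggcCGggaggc
Dnmt3a short form: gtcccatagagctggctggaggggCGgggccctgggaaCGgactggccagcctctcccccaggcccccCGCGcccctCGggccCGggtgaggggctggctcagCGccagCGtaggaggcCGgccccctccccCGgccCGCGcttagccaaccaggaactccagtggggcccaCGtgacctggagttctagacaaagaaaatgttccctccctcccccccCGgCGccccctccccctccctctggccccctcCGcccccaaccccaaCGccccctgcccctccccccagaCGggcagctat

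Member windows on chromosome 18, where Mbd2 lies, were left out. The other 8 of the 9 members had 13 RefSeq windows in all, with a median of 22 CpG. The median was 7 over all 32851 windows of that length. Tet2, which has 1 transcript in the deposited tables, had the most, 57 CpG, and 99.8% of all windows had fewer. The upstream start of Dnmt1 had the fewest of the 13, its 2 CpG being more than 14.1% of all windows hold. The windows were also searched on both strands for the letters TTTCCCGC, TTTCGCGC, TTTGCCGC and TTTGGCGC, spellings of the site that E2F factors, regulators of S-phase genes, are known to bind. These letters stood in 2 of the 13 member windows, the Dnmt1-203 start and the downstream Uhrf1 start, and in 2.26% of all windows. Every searched spelling contains a CpG, and both of these member windows hold 33 CpG. The share over all windows was not matched for CpG count, so the 2 shares are not comparable. A match describes the letters in the window and is not evidence of binding.

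Dnmt3a and Dnmt1 were the most abundant members, each near 17 to 19 TPM. The TET enzymes and the readers lay between about 5 and 8 TPM, Uhrf1 lay between 1 and 2 TPM, and Dnmt3b just below 1 TPM. At a detection limit of 1 TPM in both libraries, 8 of 9 members were detected, beside 27.7% of all genes and 53.8% of protein-coding genes, and Dnmt3b was the member below it. The median member stood at 6.485 TPM, beside 7.32 for the 11551 detected protein-coding genes. In bulk tissue a low level from fewer expressing cells and from less RNA per cell cannot be told apart.

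**Figure D1:**
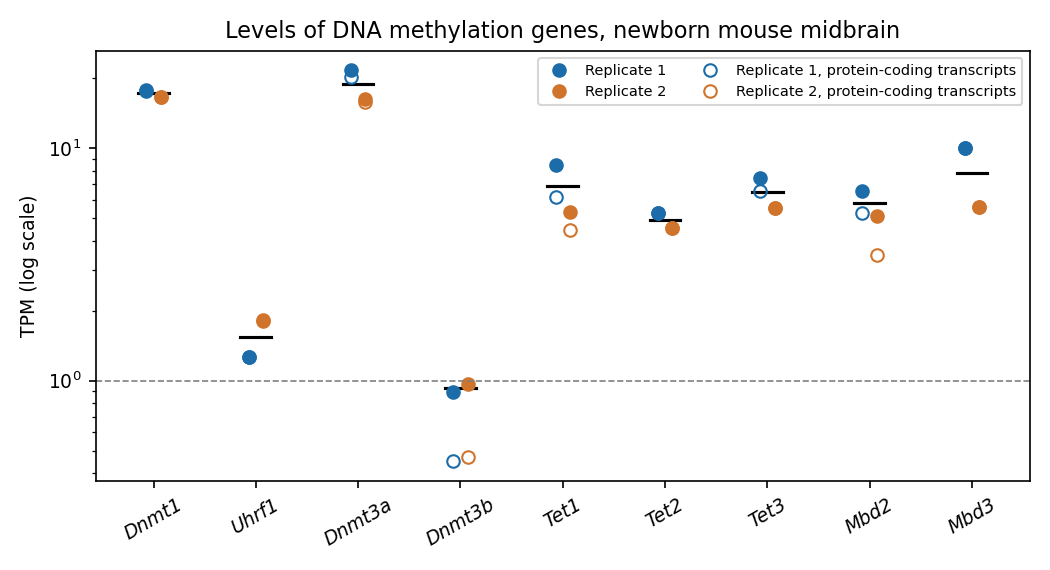
TPM of the 9 members on a log scale in replicate 1 (blue) and replicate 2 (orange), filled points for all transcripts of the gene, open points for protein-coding transcripts only (hidden where they coincide) and a black bar for the mean. Dnmt1 and Dnmt3a lie at the top, and Dnmt3b, at 0.89 and 0.97 TPM, lies below the dashed line at 1 TPM.

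Among the maintenance genes, Dnmt1 (ENSMUSG00000004099.11, chromosome 9, 20907209 to 20959888, minus strand, GRCm38) stood at 17.72 TPM in replicate 1 and 16.68 in replicate 2 (17.2 ± 0.735 SD), from 6902 and 12019 counts. Its level exceeded that of 77.8% of detected protein-coding genes. Uhrf1 (ENSMUSG00000001228.10, chromosome 17, 56303321 to 56323486, plus strand), which reads hemimethylated DNA and brings Dnmt1 to it, stood at 1.26 and 1.83 TPM (1.545 ± 0.403 SD), from 315 and 810 counts. It exceeded only 4.59% of detected protein-coding genes. Dnmt1 was above Uhrf1 in both libraries, by 13.1-fold and 8.69-fold, a log2 ratio of 3.42 ± 0.42 SD. The paralog Uhrf2, chosen for this comparison after its value was seen, stood at 16.57 and 13.62 TPM, which was 12.3-fold and 7.11-fold above Uhrf1.

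Other genes of the maintenance step spread widely. Of 7 listed partners, 4 were detected, beside 53.8% of all protein-coding genes, with a list median of 2.98 TPM. Usp7, the deubiquitinase that acts on Dnmt1 and Uhrf1, reached 24.4 ± 4.42 TPM and Pcna, the replication clamp, 22.7 ± 1.41 TPM. Lig1, the replicative DNA ligase, was lower at 2.98 ± 0.0919 TPM. Hells and Cdca7, the remodeller and its DNA-binding partner, passed 1 TPM in 1 library each: Hells stood at 1.16 and 0.69 TPM, Cdca7 at 0.96 and 2.66 TPM. Dppa3, an inhibitor of Uhrf1 in oocytes and early embryos, had no counts in either library, and neither had Dnmt3l, the germ-cell cofactor of the de novo enzymes. A count of 0 allows up to 0.065 CPM (counts rescaled to a common library total) in replicate 1 and 0.0417 in replicate 2, for counting error only.

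Dnmt3a (ENSMUSG00000020661.11, chromosome 12, 3806007 to 3914443, plus strand) stood at 21.64 and 16.22 TPM (18.93 ± 3.83 SD), on 13142 and 18958 counts, and exceeded 80.2% of detected protein-coding genes. Dnmt3a and Dnmt1 did not keep their order: Dnmt3a was 1.22-fold above Dnmt1 in replicate 1 and at 0.973 times its level in replicate 2. Dnmt3b (ENSMUSG00000027478.11, chromosome 2, 153649450 to 153687730, plus strand), the form known for early embryos and pericentric repeats, stood at 0.89 and 0.97 TPM (0.93 ± 0.0566 SD). Its 150 and 268 counts make it the least deeply read member, with deposited credibility bounds of 0.746 to 1.23 TPM and 0.827 to 1.21 TPM. Dnmt1, Dnmt3a and Dnmt3b made up 44, 53.8 and 2.21% of the summed methyltransferase TPM in replicate 1. In replicate 2 the same shares were 49.2, 47.9 and 2.86%.

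Much of the Dnmt3b level rested on few reads. Its retained-intron transcripts held 49.2 and 51.4% of the TPM but only 10.7 and 11.9% of the counts, 16 and 31.9 of them. The main one, Dnmt3b-211, is 756 bases long, against 4318 for Dnmt3b-201. On protein-coding transcripts alone Dnmt3b stood at 0.45 and 0.47 TPM. Among the coding forms, Dnmt3b-206 held 24.27 and 21.68% of the gene, while Dnmt3b-201 held 26.06 and 0% and Dnmt3b-207 held 0.48 and 24.9%. The TPM of Dnmt3b-206, 0.22 and 0.21, lay above its own deposited upper bounds of 0.158 and 0.157. By posterior mean TPM its share was only 6.69 and 7.53%. Dnmt3b-201 in replicate 1, at 0.23 TPM, also lay above its upper bound, with a posterior mean share of 12.99%. For Dnmt3b-207 the posterior mean shares were 3.67 and 21.18%. Dnmt3b-201 has 688 bases and 2 splice junctions that Dnmt3b-207 lacks, and Dnmt3b-207 has 1 junction and no base of its own. On unscaled TPM the deposited bounds of Dnmt3b-207 did not overlap between libraries, reaching 0.0855 in replicate 1 and running from 0.153 to 0.28 in replicate 2. Those of Dnmt3b-201 did overlap, from 0.0417 to 0.219 in replicate 1 and up to 0.0531 in replicate 2. The share of all transcripts whose bounds do not overlap between these libraries is not given here.

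The TET enzymes lay close together. Tet1 (ENSMUSG00000047146.11, chromosome 10, 62804570 to 62908996, minus strand) stood at 8.44 and 5.32 TPM (6.88 ± 2.21 SD). Tet3 (ENSMUSG00000034832.11, chromosome 6, 83362373 to 83459084, minus strand) stood at 7.45 and 5.52 TPM (6.485 ± 1.36 SD). Tet2 (ENSMUSG00000040943.8, chromosome 3, 133463679 to 133545139, minus strand) was the lowest of the TET genes in both libraries, at 5.28 and 4.55 TPM (4.915 ± 0.516 SD); on protein-coding transcripts alone Tet1, at 4.44 TPM, was below it in replicate 2. None of the 3 TET pairs was 2-fold apart in the same direction in both libraries: the log2 ratio was 0.38 ± 0.15 for Tet3 over Tet2, -0.06 ± 0.16 for Tet3 over Tet1 and -0.44 ± 0.32 for Tet2 over Tet1. Tet1 was above Tet3 in replicate 1 and below it in replicate 2. With protein-coding transcripts alone the mean ratio of Tet3 over Tet1 turned to 0.20. As a share of the summed TET level, Tet1 held 39.9 and 34.6%, Tet2 24.9 and 29.6% and Tet3 35.2 and 35.9%.

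Writers and erasers kept a steady relation within the libraries. The summed level of the methyltransferases was 40.25 and 33.87 TPM and that of the TET enzymes 21.17 and 15.39 TPM, a fold of 1.9 and 2.2. Dnmt3a stood 2.88-fold above Tet3 in replicate 1 and 2.9-fold in replicate 2, which was the closest match between the libraries among the 9 pairs compared. Of those pairs, 4 were 2-fold or more apart in the same direction in each library: Dnmt3a over Dnmt3b, Dnmt1 over Dnmt3b, Dnmt1 over Uhrf1 and Dnmt3a over Tet3. The share of all gene pairs that are this far apart is not given here, so the count describes these pairs only.

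Genes that act with or after the TET enzymes were mostly detected. Of 5 genes for partners and for the enzymes that make their cosubstrate, 5 were detected, with a median of 25.7 TPM. Idh1 and Idh2, which make 2-oxoglutarate, stood at 57.3 ± 18.9 and 25.7 ± 4.69 TPM, and Ogt, the sugar transferase that binds TET proteins, at 30 ± 9.93 TPM. Of 12 genes of oxidised-base removal, 9 were detected, with a median of 2.61 TPM. Among all protein-coding genes 53.8% were detected. Tdg, the glycosylase that excises oxidised methylcytosine, stood at 15.86 and 11.17 TPM, Apex1, the endonuclease that cuts the resulting site, at 22.36 and 18.06 TPM, and the gap-filling polymerase Polb at 9.41 and 8.29 TPM. The glycosylase Neil2 was below 1 TPM in both libraries, at 0.03 and 0.06 TPM.

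The readers Mbd3 (ENSMUSG00000035478.10, chromosome 10, 80392539 to 80399550, minus strand) and Mbd2 (ENSMUSG00000024513.12, chromosome 18) were of similar level. Mbd3 stood at 10.01 and 5.58 TPM (7.795 ± 3.13 SD), on 848 and 887 counts. Mbd2 stood at 6.57 and 5.11 TPM (5.84 ± 1.03 SD), on 666 and 881 counts. Mbd3 was above Mbd2 by 1.52-fold in replicate 1 and 1.09-fold in replicate 2, so the pair did not reach 2-fold. The mean log2 ratio was 0.36, and 0.79 with protein-coding transcripts alone. Of the listed subunits of their shared NuRD complex, 13 of 13 were detected, beside 53.8% of all protein-coding genes, with a median of 16.1 TPM. The remodeller Chd3 was highest at 57.8 ± 4.17 TPM, the deacetylase Hdac2 reached 32.9 ± 6.89 TPM, the small subunit Cdk2ap1 26.2 ± 5.68 TPM and the remodeller Chd4 24.9 ± 4.81 TPM. Of 8 other genes with a methyl-CpG binding domain or a reader zinc finger, 8 were detected, with a median of 5.65 TPM; the list includes Mbd5 and Mbd6, which are not known to bind methylated CpG. Zfp57, which protects methylation at imprinted regions, stood highest at 38.89 and 25.68 TPM, followed by the zinc finger factor Zbtb38 at 16.59 and 9.32 TPM.

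By mean TPM the members ranked Dnmt3a, Dnmt1, Mbd3, Tet1, Tet3, Mbd2, Tet2, Uhrf1 and Dnmt3b. Of the 8 neighbouring pairs in this order, 6 kept their direction in both libraries with a mean log2 ratio larger than its SD. The exceptions were Dnmt3a with Dnmt1 and Tet1 with Tet3. The widest steps were from Tet2 down to Uhrf1, a log2 ratio of 1.63 ± 0.51, and from Dnmt1 down to Mbd3, 1.19 ± 0.53. With protein-coding transcripts alone 4 of the 8 neighbours were separate by this rule.

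The methyl donor is S-adenosylmethionine, and 5 of 7 genes of its cycle were detected, with a median of 6.89 TPM. Mat2a, which makes the donor outside the liver, stood at 17.71 and 11.72 TPM, and Ahcy, which clears its spent form, at 11.59 and 11.38 TPM. The liver enzymes Mat1a and Bhmt were below 1 TPM in both libraries. Among 10 germline genes whose promoters are known to be held silent by DNA methylation in somatic tissue, 0 were detected and 5 had no counts in either library (Sycp1, Sycp3, Asz1, Taf7l and Hormad1). Tdrd1, a piRNA pathway gene, had the highest mean of the list at 0.19 and 0.18 TPM, and Dazl, Mael, Ddx4 and Slc25a31 lay between 0 and 0.26 TPM. Methylation itself was not measured. Across all partner lists, which were chosen with earlier results of these data known, 55 of 74 genes were detected, beside 53.8% of all protein-coding genes.

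**Figure D2:**
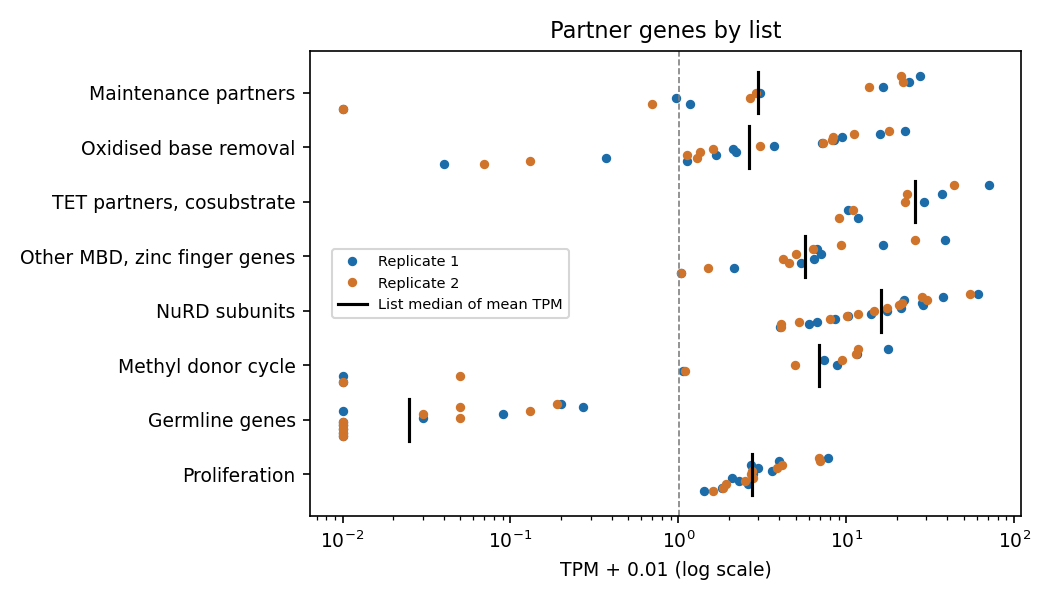
TPM plus an offset of 0.01 on a log scale for each gene of 8 partner lists, in replicate 1 (blue) and replicate 2 (orange), with a black bar for the list's median of mean TPM and a dashed line at 1 TPM. The NuRD subunits and the TET partners lie wholly to the right of the line and the 10 germline genes wholly to its left.

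Between the libraries, compared as TMM-scaled estimated counts so that sequencing depth is removed, 0 of 9 members differed 2-fold or more, beside 17% of the 18554 genes tested and 1.64% of the 12395 that had 400 or more. In single directions, 9.21% of the genes tested were 2-fold or more higher in replicate 2 and 7.76% lower. At 1.5-fold 1 member, Uhrf1, was apart, beside 27.7% of the genes tested and 8.62% of those with 400 or more counts. Of the members, 4 were higher and 5 lower in replicate 2, with a median log2 ratio of -0.04 beside 0.00 over all genes. Dnmt3a, Tet3 and Tet2 differed least, with log2 ratios of -0.08, -0.04 and 0.07. Dnmt1 was higher in replicate 2 by a log2 ratio of 0.20 (counting SE 0.022), although its TPM was lower there, so the unscaled and scaled values differ in sign.

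Uhrf1 and Mbd3 differed most between the isolates, in opposite directions. Uhrf1 was higher in replicate 2 by a log2 ratio of 0.76 (counting SE 0.096), 1.69-fold, a size above that of 95.8% of genes with 400 or more counts. Mbd3 was lower in replicate 2 by a log2 ratio of -0.54 (counting SE 0.069), above 89.3% of those genes in size. Beside Uhrf1, 10 of 11 listed proliferation genes were higher in replicate 2, with a median log2 ratio of 0.40 and a range from -0.11 to 0.77. Top2a, the topoisomerase of dividing cells, had a log2 ratio of 0.74 the mitotic cyclin Ccnb1 0.77 and the mitotic kinase Cdk1 0.53, while the replication helicase gene Mcm6 had 0.02. Markers of other cell types moved the same way. The median log2 ratio was 0.34 for astrocyte markers and 0.56 for the oligodendrocyte lineage, with 4 of 4 tested genes higher in each, 0.87 for blood (3 of 3), 1.40 for choroid plexus (4 of 4) and 6.08 for hindbrain (5 of 5). Neuron, progenitor and microglia markers had median log2 ratios of 0.12, 0.01 and 0.05, and endothelium -0.17. The part of these tissues in the Uhrf1 and Mbd3 differences was not tested.

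**Figure D3:**
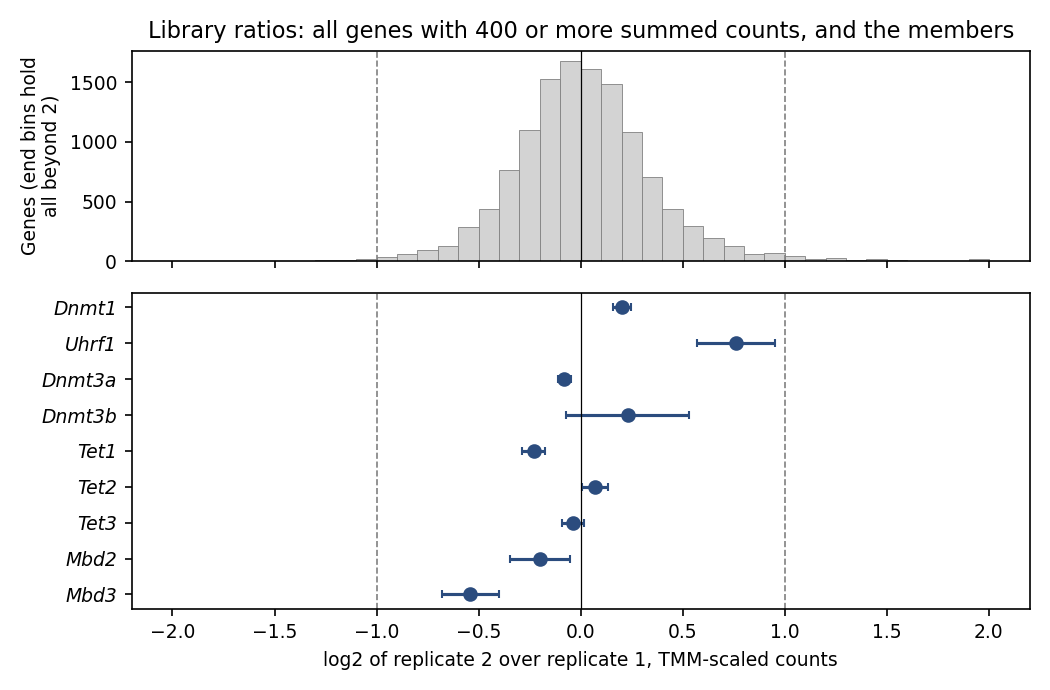
Above, the number of genes with at least 400 summed counts in each bin of the log2 ratio of replicate 2 over replicate 1 on TMM-scaled counts, with all genes beyond 2 placed in the end bins. Below, the ratio of each member with 2 counting SEs to either side; Uhrf1 at 0.76 and Mbd3 at -0.54 lie farthest out, and no member passes the dashed lines at 2-fold.

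The deposited transcript shares give, for each member, the percent of its TPM assigned to each annotated transcript. The 9 members have 62 transcripts in these tables, of which 26 held at least 10% in 1 library or both. The leading transcript was the same in both libraries for 6 members, including Tet2, which has only 1 transcript and cannot change. The 3 others were Uhrf1, Tet1 and Mbd3; over 8547 detected protein-coding genes with several transcripts, 17.2% had another leading transcript in each library. Annotated starts within 500 bases of each other were joined into start groups, and 8 of 9 members had at least 2 groups holding 10% or more in both libraries, beside 18.2% of 11550 detected protein-coding genes, which were not matched for their number of annotated transcripts. With starts joined within 2000 bases it was 7 of 9. These counts include groups of noncoding transcripts for Dnmt3b, Mbd2 and Tet1.

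**Figure D4:**
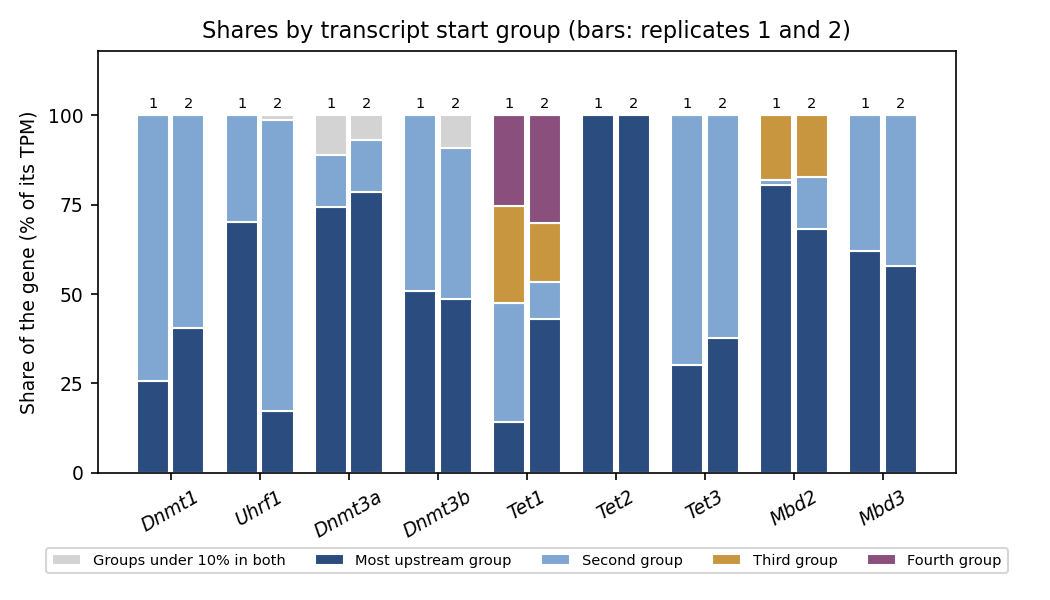
Percent of each member's TPM by group of annotated transcript starts, ordered from the most upstream group at the bottom of each bar, with replicate 1 on the left and replicate 2 on the right of each pair; groups under 10% in both libraries are grey. The Uhrf1 bars change most, from 70.2 to 17.3% for the upstream group, while the Dnmt3a and Tet3 bars differ little and Tet2 has 1 group.

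Dnmt1 reads were divided between transcripts whose annotated starts lie 6.91 kilobases apart. The upstream transcript, Dnmt1-202, held 25.56% of the gene in replicate 1 and 40.59% in replicate 2, on 1726 and 4777 assigned counts. The leading transcript, Dnmt1-201, held 70.53 and 52.38%, and Dnmt1-203, which starts in the CpG-rich window, 3.92 and 7.02%. These 2 start within 500 bases of each other and form 1 start group, which held 74.5 and 59.4%. The first exon of Dnmt1-201 runs into the CpG-rich window. Dnmt1 is known to use a separate upstream first exon in oocytes, which yields a shorter protein. Dnmt1-202 has 1501 codons against 1620 in Dnmt1-201. Dnmt1-203, from the downstream start group, also has 1501 codons, so this length does not mark the upstream form. The upstream form is told from Dnmt1-201 by its 156-base first exon and 2 splice junctions, out of about 5 kilobases. Its share therefore rests on a small part of the reads. Dnmt1-201 also has 3 bases in internal exons that the upstream form lacks, so the shares do not measure use of the start alone. The annotated start of Dnmt1-202 lies in the window with 2 CpG, and those of Dnmt1-201 and Dnmt1-203 in windows with 12 and 33. The Dnmt1 transcripts are 3 to 6 bases longer in the deposited tables than in the annotation used for names, and the other 59 member transcripts have the same length in both.

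Uhrf1 showed the largest change of start. Its upstream group held 70.2% of the gene in replicate 1 and 17.3% in replicate 2, and its downstream group, 0.913 kilobases further on, 29.8 and 81.4%. In counts, Uhrf1-201 from the upstream start had 224.8 in replicate 1 and 137.9 in replicate 2, while Uhrf1-204 from the downstream start had 32.93 and 659. On unscaled TPM the deposited bounds of Uhrf1-204 lie far apart and those of Uhrf1-201 nearly touch: Uhrf1-201 ran from 0.433 to 1.01 TPM and from 0.106 to 0.421 TPM, and Uhrf1-204 from 8.45e-05 to 0.417 TPM and from 1.27 to 1.64 TPM. How many of all transcripts have bounds that far apart is not given here. Both transcripts encode 782 codons and differ only in their first exon, 241 bases in Uhrf1-201 and 46 bases in Uhrf1-204. With 1 splice junction each besides these bases, the shares rest on a small part of few reads. By posterior mean TPM the upstream group held 59.9 and 17.4%. The downstream start was the larger in replicate 2 and the upstream start in replicate 1. The downstream window has 33 CpG and the letters TTTCGCGC, the upstream window 12 CpG and none of the searched letters. Any link between these sequences and the shares or the Uhrf1 level was not tested. With 1 library on each side, this is a description of these libraries.

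Dnmt3a kept its forms at the same proportion. Dnmt3a-201, the long form of 908 codons, held 74.34 and 78.48% of the gene. Dnmt3a-203, of 689 codons, starts 84.6 kilobases downstream and held 14.56 and 14.53%, on 1243 and 1720 counts. This short form, Dnmt3a2, lacks the N-terminal region and is known for embryonic stem cells and germ cells. Against Dnmt3a-201, the short form has only 117 first-exon bases and 2 splice junctions of its own. Dnmt3a-201 has 3489 last-exon bases that the short form lacks, so the shares do not measure use of the start alone. As assigned, at 3.15 and 2.36 TPM, the short form alone stood above the whole of Dnmt3b in both libraries. Its start had 18 CpG, which is fewer than the 46 beside the long form but more than 70.3% of all windows hold.

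Tet1 was split among 4 start groups spread over 84.6 kilobases. Tet1-206, of 2039 codons and the most upstream start, held 14.14 and 43.06%, and Tet1-201, of 2007 codons and 19.1 kilobases downstream, held 33.37 and 10.17%. In counts the long forms exchanged places, 1289 and 4577 for Tet1-206 against 2960 and 1051 for Tet1-201. The forms share nearly all of their sequence, and 390 bases of Tet1-206 are not in Tet1-201. The noncoding Tet1-202 held 27.17 and 16.49% on 215.3 and 152.3 counts and Tet1-205, a fragment of 1197 bases, held 22.26 and 26.06% on 132.1 and 180.2 counts, so their shares of TPM are far above their shares of reads. Without noncoding transcripts Tet1 stood at 6.15 and 4.44 TPM.

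Tet3 kept its order of forms. Tet3-202, of 1668 codons, held 57.99 and 62.44%. Tet3-203, of 1803 codons and starting 14.7 kilobases upstream, held 30.24 and 37.56%. Tet3-202 has 5669 last-exon bases that Tet3-203 lacks, so these shares do not measure use of the start alone. The longer Tet3 protein is known to carry a CXXC domain that binds CpG, which the shorter lacks. The noncoding Tet3-201 held 11.77% in replicate 1 and 0% in replicate 2. Tet2 has 1 transcript in these tables, of 1912 codons, which held 100% in both libraries. Tet3 overlaps the annotated genes 5430434F05Rik, B230319C09Rik and Mir6374, and Dnmt3a and Dnmt3b overlap their antisense genes Dnmt3aos and Dnmt3bos; the libraries were stranded, but whether counting used the strand is not given in these sources. Dnmt1 overlaps Mir7081, Tet1 overlaps Gm26479 and Gm48353, and Tet2 overlaps Gm42567.

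The readers also came in several forms. Mbd3-204, of 253 codons, led in replicate 1 with 48.83% and held 32.03% in replicate 2. Mbd3-206, from the downstream start group and with an annotated coding part of 184 codons, held 33.41 and 42.23%, and so led in replicate 2. Mbd3-201, of 285 codons, held 9.94 and 25.74% and differs from Mbd3-204 by 96 more bases in the first exon. The upstream group that holds Mbd3-201 and Mbd3-204 had 61.9 and 57.8%. Mbd3-206 is told from these 2 forms only by 76 bases in its last exon. It has no first-exon base or splice junction of its own against them, so these shares do not measure use of the start. Mbd2-201, of 414 codons, held 69.95 and 63.42%, and the shorter Mbd2-202, of 249 codons, 10.52 and 4.64%. Mbd2 retained-intron transcripts held 19.5 and 31.9% of TPM on 3.41 and 8.74% of the counts, and Mbd2 stood at 5.29 and 3.48 TPM on protein-coding transcripts.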

How the data were processed

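Total RNA from 1 group of 2 midbrain libraries was analysed; the labels call them independent isolates, so spreads include pooling and technical variation alike. According to notes that the authors deposited for the samples, quantification used mm10 and GENCODE M4; aligner and quantifier: not given in the sources used here. Deposited by the authors were estimated counts, TPM and FPKM for genes and transcripts, the percent of each gene held by each transcript, and credibility bounds of TPM (treated as a score). TPM gave levels and FPKM only an alternative. Symbols, coordinates and transcript classes came from GENCODE M21 on the same assembly, which matched 42462 of 43346 gene identifiers. Promoter windows came from RefSeq.

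Levels are mean ± SD of TPM. Pairs used log2(TPM + 0.1) within a library and were called at 2-fold the same way in both. Library ratios used rounded estimated counts of genes with 10 or more counts in all. They were scaled by TMM in edgeR 4.0.16 (R 4.3.3) with a prior count of 0.5. No count test was possible. The scaling was also run on simulated data with counting error only, which cannot show how it handles the tissue differences between these isolates. DESeq2 1.42.0 size factors were an alternative. Counting SEs and the floor of 3 counts cover counting error only. All 9 members, both genes of each pair, up to 4 highest genes per list, listed genes below 1 TPM where absence is described and transcripts of at least 10% were to be named, at most 4 per member; Hells, Cdca7 and Dnmt1-203 were named after their values were seen, as was Uhrf2 against Uhrf1. The members and lists were chosen with earlier results of these data known. Plots used matplotlib 3.10.9.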

Additional observations from a re-analysis of the deposited data

How the results depend on the processing

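Of the alternative values for counts (held to 1.5 times) and for the median level (held to the SD between libraries), 32 stayed and 1 did not: the number of members apart between libraries went from 0 to 1 (Uhrf1) with a fold of 1.5, beside 27.7% of all genes tested. Without replicate 1 or replicate 2 the median member level was 5.32 to 7.45 TPM, with 8 and 8 members detected and 4 and 4 pairs called. Single levels were held to the SD between libraries, library ratios to the 95% counting interval and pairs to their call; of these values 141 stayed and 12 moved. Protein-coding transcripts alone moved Dnmt3b to 0.46 and Mbd2 to 4.38 TPM, posterior means moved Dnmt3b to 0.995 TPM, and scaling by total counts moved the Dnmt3a ratio to -0.11. Unscaled TPM moved the library ratios of Dnmt1 (-0.09), Dnmt3a (-0.42), Uhrf1 (0.54), Tet1 (-0.67), Tet2 (-0.21), Tet3 (-0.43), Mbd2 (-0.36) and Mbd3 (-0.84), of which Dnmt1 and Tet2 changed sign. Partner genes detected were 57 at 0.5 TPM and 46 at 2 TPM. No paired analysis was possible because there is 1 group and no test. Depth limits Dnmt3b and Uhrf1 most, and transcript shares more than gene levels.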
